A study of Mus musculus with 9 samples.

Results

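Eicosanoids are the signalling lipids made from arachidonic acid, and 7 genes of their synthesis and sensing were followed here. They were taken by symbol from the gene column shared by all 9 libraries, where all 7 of 7 listed symbols were present among 12467 distinct gene names. Each library is poly(A)-selected RNA from RAW264.7, an established mouse macrophage-like tumour line, labelled wild type, and the libraries form 3 groups of 3. Mock cells were untreated. M1 cells received LPS at 100 ng/ml with mouse interferon gamma at 50 ng/ml. I cells received the same LPS and interferon gamma and also potassium iodide at 20 mM during polarization. Rises, falls and steps described below are therefore differences between groups and not successive states of the same cells. The time of treatment is not given in the sources used here, and no group received another salt, so effects of the iodide ion, of potassium and of osmolarity cannot be told apart. Nothing in the labels ties the 3 libraries of a group to separate cultures. The p-values therefore cover the spread from library to library, and that spread may be technical.

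As background, phospholipases free arachidonic acid from membrane lipids, and the cyclooxygenases turn it into prostaglandin H. Terminal synthases then make the individual prostanoids, among them prostaglandin E, which acts back on the cell through receptors of the EP family. A separate branch, begun by 5-lipoxygenase with its activating protein FLAP, makes leukotrienes. In macrophages the inducible cyclooxygenase COX-2 is a classical target of LPS, and prostaglandin E is known to restrain some inflammatory outputs through the cyclic AMP-raising receptor EP4.

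The members sit at the following places in GRCm38, by the GENCODE vM21 annotation. Pla2g4a encodes the cytosolic phospholipase that releases arachidonic acid (chr1:149829618-149961290, minus strand). Ptgs1 encodes the constitutive cyclooxygenase COX-1 (chr2:36230426-36252272, plus strand). Ptgs2 encodes COX-2 (chr1:150100031-150108227, plus strand). Pla2g4a and Ptgs2 thus lie head to head on chromosome 1, with 138741 bases between their starts. Ptges encodes the inducible microsomal prostaglandin E synthase (chr2:30889471-30929863, minus strand), and Ptges2 a second membrane-bound enzyme of that name (chr2:32395896-32405772, plus strand). Ptger4 encodes the receptor EP4 (chr15:5206661-5244187, minus strand). Alox5ap encodes FLAP (chr5:149264767-149288153, plus strand).

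The 250 bases upstream of 4 starts are shown: those of the cyclooxygenase pair, whose levels went in opposite directions, of the inducible E synthase and of the receptor. They come from RefSeq for GRCm38.p6, which gave promoters for 6 of the 7 genes (none for Alox5ap), and all are written along the strand of the gene. Capitals mark matches on either strand to 6 motifs: the C/EBP palindrome TTGCGCAA, the cyclic AMP response element core TGACGT, the E box CACGTG, the GC box GGGCGG, the TATA box TATAAA and the NF-kB site, the last searched as its usual 10-base consensus.
Ptgs2 (chr1:150099781-150100030, plus strand): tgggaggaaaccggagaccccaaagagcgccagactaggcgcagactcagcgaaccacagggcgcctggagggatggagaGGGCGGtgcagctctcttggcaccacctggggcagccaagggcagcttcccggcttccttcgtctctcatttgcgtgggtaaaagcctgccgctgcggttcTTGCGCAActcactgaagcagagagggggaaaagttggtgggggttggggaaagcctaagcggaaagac
Ptgs1 (chr2:36230176-36230425, plus strand): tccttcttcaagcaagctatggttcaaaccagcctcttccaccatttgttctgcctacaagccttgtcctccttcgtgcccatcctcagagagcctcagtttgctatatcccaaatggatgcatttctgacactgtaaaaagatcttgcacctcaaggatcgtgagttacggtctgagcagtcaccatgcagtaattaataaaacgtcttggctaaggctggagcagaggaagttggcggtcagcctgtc
Ptges (chr2:30903298-30903547, minus strand): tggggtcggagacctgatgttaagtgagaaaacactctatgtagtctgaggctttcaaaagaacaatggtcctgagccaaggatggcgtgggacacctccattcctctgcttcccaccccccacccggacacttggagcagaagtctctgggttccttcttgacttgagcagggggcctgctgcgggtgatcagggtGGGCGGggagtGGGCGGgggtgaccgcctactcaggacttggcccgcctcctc
Ptger4 (chr15:5244188-5244437, minus strand): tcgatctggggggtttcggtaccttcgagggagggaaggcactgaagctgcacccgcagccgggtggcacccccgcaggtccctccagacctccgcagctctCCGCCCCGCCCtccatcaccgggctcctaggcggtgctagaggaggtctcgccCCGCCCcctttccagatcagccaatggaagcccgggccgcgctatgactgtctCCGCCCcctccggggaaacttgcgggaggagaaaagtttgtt

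The Ptgs2 window held 1 C/EBP palindrome, 69 to 62 bases before the start, and 1 GC box. That palindrome is in 54 of 32851 RefSeq promoter windows of the same length (0.16%). The Ptges window, whose start lies inside the longer GENCODE gene, held 2 GC boxes, 53 to 48 and 42 to 37 bases before it. The Ptger4 window held 4 GC boxes, all on the strand opposite to the gene, of which 2 share 1 base. The GC box is in 32.74% of all windows. None of the 6 motifs was found in the Ptgs1 window, which says only that these letters are absent from these 250 bases. The TGACGT core, the E box, the NF-kB site and the TATA box had no match in the 4 windows shown and are in 6.47%, 6.02%, 7.25% and 12.37% of all windows. Letters outside these windows, including those downstream of each start, were not searched, so no absence extends beyond them. A match is a description of the letters and not a binding site.

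The values are FPKM, fragments scaled by gene length and by library total, so levels of different genes can be set side by side. Library totals recovered from them were 17431069 to 25470730 fragments, and pairs of libraries within a group differed by more than counting noise (mean chi-square per gene 2.03 to 3.72). The 8 macrophage markers fixed for a check of the cells were all present, with a summed level of 3944 to 4018 FPKM in the Mock libraries. The sum was 1809 to 1868 in the M1 libraries and 1133 to 1179 in the I libraries. All libraries are of the RAW264.7 line, and the sum does not measure a number of cells. As a plain sum of FPKM it is weighted to the markers with the highest levels and does not give the change of each. The fall of the sum accompanies each result below, and its part in them was not tested. Of the mast cell markers only Hdc was present (1 of 6), at 3.62 to 3.996 FPKM in the Mock libraries, 6.86 to 7.16 in the M1 libraries and 3.60 to 3.96 in the I libraries. Of the platelet markers Gp1ba and Itga2b were present (2 of 5), with a summed level of 0.274 to 0.392 FPKM in the Mock libraries, 0.651 to 0.764 in the M1 libraries and 0.401 to 0.580 in the I libraries. Lck was the sole lymphocyte marker (1 of 5), at 4.60 to 5.26 FPKM in the Mock libraries, 3.34 to 3.96 in the M1 libraries and 3.29 to 3.48 in the I libraries, and the neutrophil, fibroblast and epithelial markers are not analysed here.

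Cyclooxygenase genes took opposite courses. Ptgs2 stood at 30.1, 31.6 and 31.5 FPKM in the Mock libraries, at 2070, 1824 and 1940 in M1, and at 2279, 2265 and 2330 in I. The groups did not overlap, and every I library lay above every M1 library. Ptgs2 ranked between 1515 and 1597 among the 12474 rows in Mock, between 9 and 12 in M1 and between 8 and 9 in I. It took 0.835% to 0.948% of all fragments in M1 and 1.04% to 1.07% in I, against 0.0138% to 0.0145% in Mock. Its mean rose 62.6-fold from Mock to M1 (log2 fold change 5.92 ± 0.042 SE, limma adjusted p = 2.29e-15) and was 1.18-fold higher in I than in M1 (0.24 ± 0.042 SE, adjusted p = 0.000491). With quantile scaling the latter difference was 0.13 (adjusted p = 0.0389).

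Ptgs1 moved down. Its Mock libraries gave 8.21, 8.49 and 7.22 FPKM, its M1 libraries 5.06, 5.45 and 5.14, and its I libraries 4.27, 4.11 and 3.93. Each group lay wholly below the one before it. Ptgs1 fell by 0.53 on the log2 scale from Mock to M1 (SE 0.058, limma adjusted p = 5.18e-06) and was lower in I than in M1 (−0.28 ± 0.058 SE, adjusted p = 0.00139). The Mock to M1 change was −0.25 with median-of-ratios (RLE) scaling and −0.22 with quantile scaling, both still called.

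**Figure D1:**
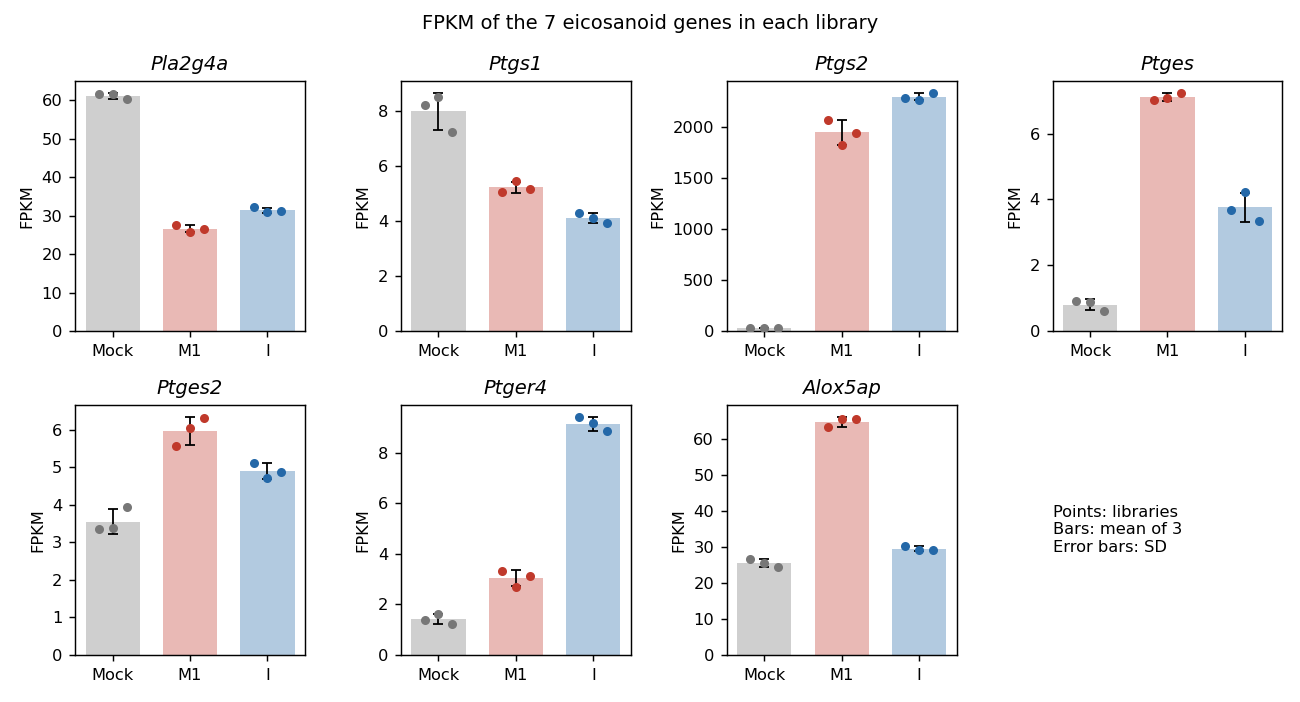
FPKM of the 7 genes in the 3 Mock, 3 M1 and 3 I libraries, with each library as a point, the group mean as a bar and the SD as an error bar, on a separate linear axis from 0 for each gene. In Ptgs2 the Mock bar of 31.1 FPKM is barely visible beside 1945 in M1 and 2291 in I, Ptger4 is highest in I, and Alox5ap in I lies near Mock.

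Within each library the level of Ptgs2 was divided by that of Ptgs1. The ratio was 3.66, 3.72 and 4.37 in Mock, 409.1, 334.5 and 377.1 in M1, and 533.1, 551.6 and 592.3 in I. COX-2 transcripts were thus in excess of COX-1 transcripts in all 9 libraries, least in Mock and most in I. The ratio rose 95.4-fold from Mock to M1 and was 1.5-fold higher in I than in M1. An exact two-sided permutation test gave p = 0.1 in all 3 comparisons, the smallest value that 3 libraries against 3 allow.

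The enzymes that make prostaglandin E differed from COX-2 in the iodide comparison. Ptges, the inducible synthase, was at 0.909, 0.89 and 0.605 FPKM in Mock, at 7.02, 7.07 and 7.23 in M1, and at 3.67, 4.24 and 3.36 in I. The I libraries lay between the other groups without touching either. Its mean rose 8.87-fold from Mock to M1 (log2 fold change 2.17 ± 0.08 SE, limma adjusted p = 3.95e-10) and fell 1.89-fold from M1 to I (−0.77 ± 0.08 SE, adjusted p = 1.12e-05). The Mock values rest on 48 to 91 fragments a library, and the logarithm of FPKM + 1 understates so low a gene. On recovered fragments with limma-voom the M1 rise was 3.15 and the fall in I −0.93.

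Ptges2, usually described as constitutive, had smaller changes. Its Mock libraries gave 3.35, 3.38 and 3.94 FPKM, its M1 libraries 5.58, 6.04 and 6.32, and its I libraries 5.12, 4.71 and 4.88. The order of the groups was that of Ptges. Ptges2 rose 1.68-fold from Mock to M1 (0.62 ± 0.061 SE, limma adjusted p = 2.21e-06) and fell 1.22-fold from M1 to I (−0.24 ± 0.061 SE, adjusted p = 0.00548). With quantile scaling the M1 rise was 0.99 on the log2 scale.

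Per length, Ptges was below Ptges2 in all Mock libraries, above it in all M1 libraries and below it in all I libraries. The order in M1 rests on the exon lengths used, 3931 bases for Ptges and 5058 for Ptges2. In recovered fragments Ptges was below Ptges2 in each M1 library (549 against 562, 608 against 668, and 505 against 568). The ratio of Ptges to Ptges2 was 0.271, 0.263 and 0.154 in Mock, 1.26, 1.17 and 1.14 in M1, and 0.717, 0.899 and 0.688 in I. The exact two-sided permutation p was 0.1 for each pair of groups, again the smallest possible.

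**Figure D2:**
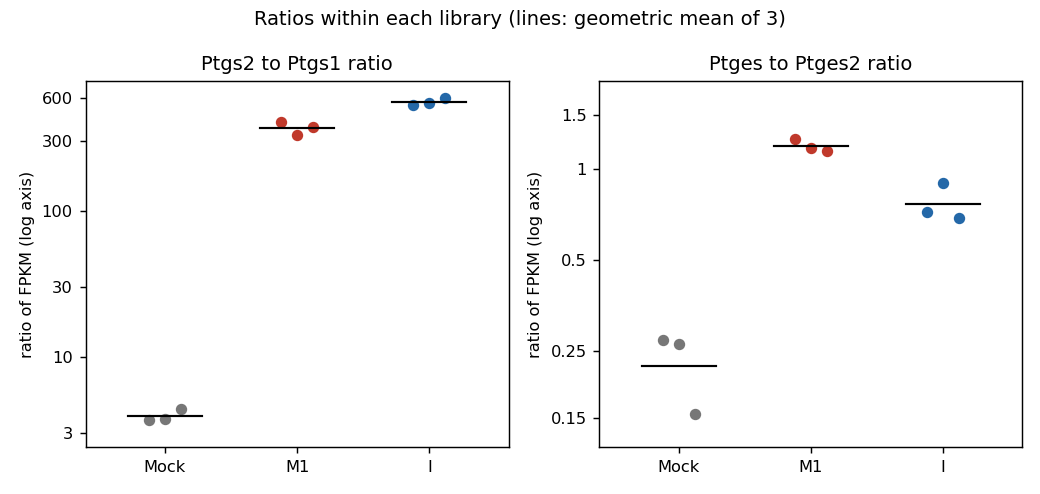
Ratio of Ptgs2 to Ptgs1 (left) and of Ptges to Ptges2 (right) within each library, on log axes, with points for libraries and lines for the geometric mean of 3. The left ratio is lowest in Mock (3.66 to 4.37) and highest in I (533.1 to 592.3), whereas the right ratio is highest in M1 (1.14 to 1.26).

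Pla2g4a, at the head of the pathway, was highest in untreated cells. It was at 61.6, 61.6 and 60.2 FPKM in Mock, at 27.6, 25.8 and 26.5 in M1, and at 32.1, 30.9 and 31.2 in I. Both polarized groups lay far below Mock, and I lay above M1 without overlap. Pla2g4a fell 2.29-fold from Mock to M1 (−1.17 ± 0.031 SE, limma adjusted p = 2.5e-11) and was 1.18-fold higher in I than in M1 (0.23 ± 0.031 SE, adjusted p = 6.94e-05).

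Ptger4, the EP4 receptor gene, rose at both steps. The Mock libraries gave 1.39, 1.63 and 1.22 FPKM, the M1 libraries 3.31, 2.68 and 3.11, and the I libraries 9.41, 9.17 and 8.86. The lowest I library was above the highest M1 library by several times the spread within either group. The mean rose 2.14-fold from Mock to M1 (0.74 ± 0.074 SE, limma adjusted p = 2.18e-06) and 3.02-fold from M1 to I (1.33 ± 0.074 SE, adjusted p = 9.37e-08). The second change ranked 42 among 11156 genes ordered from the largest rise in I vs M1. Ptger4 is uncertain to the extent that 82 of its 6648 exon bases are also exon of Ttc33, a gene on the other strand, and 1015 are also exon of the processed pseudogene Gm15937, which is not analysed here. Ttc33 itself had a Mock mean of 14.7 ± 0.65 FPKM, an M1 mean of 5.2 ± 0.17 and an I mean of 8.36 ± 0.78 (SD, n = 3). It fell from Mock to M1, where Ptger4 rose, and was higher in I than in M1, as Ptger4 was. The part of the overlaps in the Ptger4 values was not tested.

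Alox5ap, the gene of the 5-lipoxygenase activating protein, was highest in M1. It stood at 26.5, 25.5 and 24.3 FPKM in Mock, at 63.1, 65.6 and 65.4 in M1, and at 30.3, 29.1 and 29.1 in I. The M1 libraries were far from both other groups, and the I libraries lay just above Mock. With RLE scaling M1 was 1.62 and I 0.57 above Mock on the log2 scale. Hdc, the only 1 of 6 mast cell markers present, was likewise highest in M1 (values above). All libraries are of the RAW264.7 line, and any link of Hdc to Alox5ap was not tested. Alox5ap rose 2.54-fold from Mock to M1 (1.31 ± 0.035 SE, limma adjusted p = 2.84e-11) and fell 2.19-fold from M1 to I (−1.11 ± 0.035 SE, adjusted p = 1.59e-09). In the ranking from the largest rise in I vs M1 it took place 11099 of 11156. An antisense gene, Gm19719, shares 189 of its 1420 exon bases, and Gm43621 shares 148 of the 3884 exon bases of Ptgs1. Neither is analysed here.

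Set against Mock, the I group differed as follows. Ptgs2 was 73.8-fold higher (log2 fold change 6.16 ± 0.042 SE, limma adjusted p = 1.35e-15), Ptger4 6.46-fold (2.07 ± 0.074 SE, adjusted p = 2.46e-10) and Ptges 4.69-fold (1.4 ± 0.08 SE, adjusted p = 1.59e-08). Ptges2 was 1.38-fold higher (adjusted p = 0.000139) and Alox5ap 1.16-fold higher (0.2 ± 0.035 SE, adjusted p = 0.000195). Pla2g4a and Ptgs1 were lower, by −0.94 and −0.81 on the log2 scale (adjusted p = 1.23e-10 and 1.1e-07). The smaller of these sizes depend on the scaling. With RLE scaling Alox5ap was 0.57 higher, Ptges2 0.68 higher, Pla2g4a −0.56 and Ptgs1 −0.49, and the direction held in each. With limma-voom the difference of Ptges was 2.22.

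**Figure D3:**
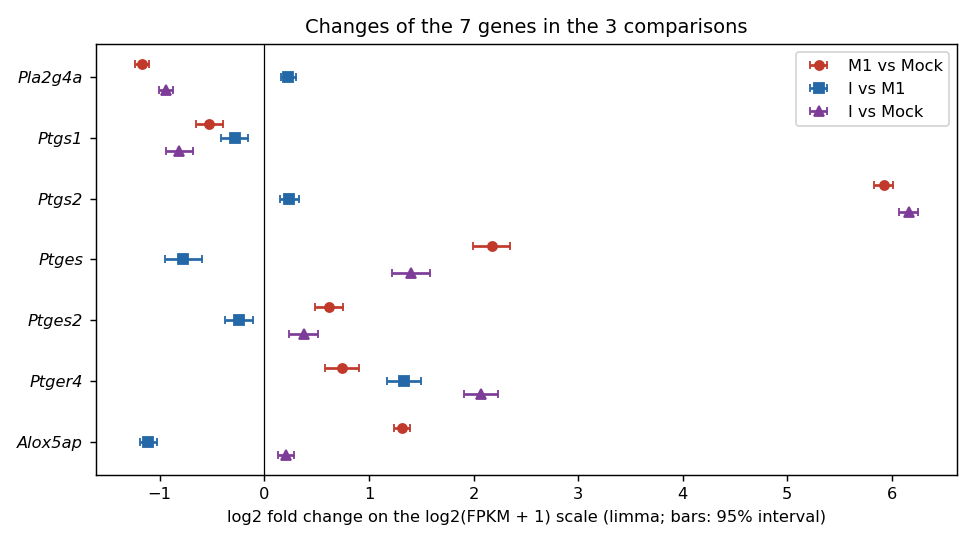
Log2 fold changes of the 7 genes on the log2(FPKM + 1) scale in M1 vs Mock (circles), I vs M1 (squares) and I vs Mock (triangles), with 95% intervals from limma. None of the intervals crosses 0, and Ptgs2 lies near 6 in both comparisons with Mock while Ptger4 and Alox5ap lie farthest from 0, on opposite sides, in I vs M1.

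All 7 genes passed the filter on low values, 0.5 FPKM in at least 3 libraries, and limma's adjusted threshold of 0.05 in M1 vs Mock, 5 higher and 2 lower. Of all 11156 genes tested 85.8% passed it, 30.5% higher and 55.3% lower. In I vs M1 all 7 passed, 3 higher and 4 lower, where 64.2% of genes did (24.9% higher, 39.3% lower). In I vs Mock all 7 passed, 5 higher and 2 lower, where 86.8% of genes did (28.2% higher, 58.6% lower). The FPKM ranges of all 7 were also apart in each comparison, as were those of 86.4%, 67.2% and 87.1% of genes. Since most genes pass, the size and direction of each change carry the description and not the count. M1 vs Mock and I vs M1 share the M1 libraries, and M1 vs Mock and I vs Mock the Mock libraries. The median gene changed by −0.23 on the log2 scale in M1 vs Mock and by −0.30 in I vs Mock, against 0.019 and 0.00042 with RLE scaling. With that scaling, which sets the median gene near 0, the members' M1 vs Mock changes were −0.86 for Pla2g4a, −0.25 for Ptgs1, 6.23 for Ptgs2, 2.35 for Ptges, 0.87 for Ptges2, 0.93 for Ptger4 and 1.62 for Alox5ap.

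The genes most like each member were sought among 5390 tested genes whose mean reached 10 FPKM in any group, by the distance between pairs of log2 fold changes (M1 vs Mock, I vs M1) from the 3 group means of 9 libraries. Nearest to Ptgs2 was the inducible nitric oxide synthase gene Nos2 at a distance of 0.28 (5.97 and 0.52), then Il1rn at 0.46. Nearest to Ptges were the integrin gene Itgal at 0.046 and the aminopeptidase gene Anpep at 0.12. Alox5ap had Aldh1b1 at 0.099 and Fam20c at 0.11, followed by the urokinase receptor gene Plaur at 0.15. Ptger4 had Sema4c at 0.13, Arc at 0.17 and the clock repressor gene Cry2 at 0.185. For Ptgs1 the nearest was the granulin gene Grn at 0.0019, for Ptges2 Ube2r2 at 0.0084 and for Pla2g4a Wsb1 at 0.018. Small and moderate changes have many neighbours, so short distances are easily found there.

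The rest of the pathway was read from 8 lists of 132 genes, of which 99 are in the files and 91 were tested. Of these, 41 were higher and 43 lower in M1 vs Mock (median log2 fold change −0.018, all genes −0.23), and 26 were higher and 37 lower in I vs M1 (median −0.057, all genes −0.065). In I vs Mock 40 were higher and 44 lower. Over all genes tested the shares higher and lower were 30.5% and 55.3% in M1 vs Mock, 24.9% and 39.3% in I vs M1, and 28.2% and 58.6% in I vs Mock, and the counts of each list below stand beside these. With RLE scaling the splits were 53 and 33, 32 and 29, and 52 and 34.

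Phospholipases and other releasing enzymes moved in both directions. Of 11 tested, 5 rose and 6 fell in M1 (median −0.14), and 3 rose and 6 fell in I vs M1 (median −0.11). The secreted phospholipase gene Pla2g5 rose from 7.19 ± 0.47 to 49.1 ± 0.88 FPKM in M1 (SD, n = 3 here and below) and was at 45 ± 1.7 in I. That last difference is called with FPKM as deposited (adjusted p = 0.028) and not with RLE scaling (adjusted p = 0.276). The lysosomal phospholipase Pla2g15 rose from 10.2 ± 0.1 to 27.8 ± 1.2. Pla2g2e, another secreted enzyme, rose from 1.3 ± 0.28 to 5.39 ± 0.15 in M1 and fell to 2.39 ± 0.14 in I. Pla2g12a climbed at both steps, from 5.83 ± 0.2 to 12.2 ± 0.64 and 18.1 ± 0.97. Daglb, a diacylglycerol lipase, fell from 5.82 ± 0.3 to 1.66 ± 0.046 in M1. The monoacylglycerol hydrolase Abhd6 rose in I vs M1 from 9.81 ± 0.44 to 15 ± 0.49, whereas its relative Abhd12 fell from 20 ± 0.45 to 11.7 ± 0.59.

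Of 11 tested genes that make, activate or re-esterify arachidonic acid, 3 rose and 7 fell in M1 (median −0.31, with 55.3% of all genes lower), and 1 rose and 6 fell in I vs M1 (median −0.11). With RLE scaling M1 had 5 rises and 5 falls. The desaturase Fads2, which acts early in arachidonic acid synthesis, fell from 74 ± 1.3 to 39 ± 1.1 and 29 ± 0.49 FPKM, and its partner Fads1 fell from 38.3 ± 0.67 in M1 to 20.6 ± 0.53 in I. Acsl3, an acyl-CoA synthetase, fell from 14.8 ± 0.58 to 6.74 ± 0.18 in M1, and Lpcat1 from 24 ± 0.86 to 6.93 ± 0.67. Lpcat2 was at 13.6 ± 0.21 in Mock and 13.7 ± 0.31 in M1 and fell to 7.12 ± 0.53 in I. With RLE and quantile scaling limma called Lpcat2 higher in M1 than in Mock (0.31 and 0.23). Mboat7, which returns arachidonic acid to phosphatidylinositol, was the gene that rose in I vs M1, from 7.04 ± 0.26 to 11.8 ± 0.24.

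Among the cyclooxygenases and terminal prostanoid synthases 4 of 8 rose and 4 fell in M1 (median −0.041), and 2 rose and 5 fell in I vs M1 (median −0.2). Members make up 4 of those 8. Ptges3, which encodes the cochaperone p23 as well as a cytosolic E synthase activity, fell from 123 ± 2.5 to 40 ± 3.4 FPKM in M1 and was at 36.4 ± 1 in I. Hpgds, the hematopoietic prostaglandin D synthase, fell from 20.6 ± 0.74 to 9.77 ± 0.48 and was higher again in I at 16.3 ± 0.069 (log2 fold change 0.68 ± 0.039 SE, limma adjusted p = 1.26e-07).

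In the leukotriene branch 3 of 7 genes rose and 3 fell in M1 (median 0.046), and 0 rose and 4 fell in I vs M1 (median −0.24, limma). Alox5, the 5-lipoxygenase that FLAP serves, was named for that role after its values were seen. Its means were 20.2 ± 0.9 FPKM for Mock, 20.9 ± 0.75 for M1 and 19.9 ± 0.69 for I, and it was not called in either step (limma adjusted p = 0.308 and 0.17). With RLE scaling it was called higher in M1 (0.35). Per length, Alox5ap exceeded Alox5 in all 3 group means, most in M1. Of the enzymes behind them, Lta4h, which makes leukotriene B, fell from 6.97 ± 0.21 in M1 to 5.78 ± 0.34 in I. Its fall from 8.87 ± 0.25 in Mock was not called with RLE scaling (adjusted p = 0.584). Ltc4s, which makes leukotriene C and was likewise named after its values were seen, fell from 2.14 ± 0.37 to 0.978 ± 0.12 in M1 and was at 1.1 ± 0.26 in I. Mgst2, a microsomal glutathione transferase able to make leukotriene C, fell from 8.08 ± 0.48 to 1.84 ± 0.24 and 1.08 ± 0.24. Cotl1, an actin-binding protein that also binds 5-lipoxygenase, rose from 46.9 ± 2 to 108 ± 2.6 in M1 and fell to 89.4 ± 2.4 in I.

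Of 7 receptor genes tested, 5 rose and 2 fell in M1 (median 0.74), and 2 rose and 2 fell in I vs M1 (median 0.098). The prostacyclin receptor Ptgir rose from 11 ± 0.36 to 47.8 ± 0.84 FPKM and fell to 26.7 ± 1.2 in I. Ltb4r1, the high-affinity leukotriene B receptor, went from 0.185 ± 0.09 to 2.31 ± 0.48 and then to 6.03 ± 0.57, rising at both steps as Ptger4 did. The cysteinyl leukotriene receptor Cysltr1 fell from 9.77 ± 0.68 to 1.71 ± 0.18 and was at 1.89 ± 0.066 in I. Fpr2, a formyl peptide receptor that also binds lipoxin, rose from 0.273 ± 0.13 to 18 ± 0.98 and fell to 3.33 ± 0.18. Ptger2, the gene of the other cyclic AMP-raising E receptor and named after its values were seen, had low means of 0.694 ± 0.18 FPKM for Mock, 0.288 ± 0.11 for M1 and 0.463 ± 0.047 for I. Per length, Ptger4 was above Ptger2 in each group mean.

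Transport and breakdown genes included Hpgd, whose 15-hydroxyprostaglandin dehydrogenase begins prostaglandin breakdown. Hpgd fell from 6.12 ± 0.41 to 0.524 ± 0.077 FPKM in M1 (limma log2 fold change −2.23 ± 0.067 SE, adjusted p = 7.61e-11) and was at 0.606 ± 0.098 in I. Of the 11 tested genes of this list 4 rose and 5 fell in M1 (median 0.0095), and 7 rose and 3 fell in I vs M1 (median 0.2). Abcc4, a pump that exports prostaglandins, fell from 12.3 ± 0.11 to 6.71 ± 0.38 in M1 and rose to 14.5 ± 0.3 in I. Zadh2, a prostaglandin reductase, went from 16.2 ± 0.66 to 6.97 ± 0.27 and 8.67 ± 0.39. Akr1b3, the aldose reductase that can also form prostaglandin F, was at 61.8 ± 0.54, 11.7 ± 0.12 and 164 ± 4.1, and its relative Akr1b8 at 50.6 ± 2.8, 73.5 ± 2.2 and 88.1 ± 0.89.

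Of 19 regulators of prostaglandin synthesis 9 were higher and 9 lower in M1 (median −0.018), and 6 were higher and 6 lower in I vs M1 (median −0.004). With RLE scaling the splits were 13 and 6 in M1 vs Mock and 8 and 4 in I vs M1, and with quantile scaling 10 and 8, and 8 and 5. Zfp36, the tristetraprolin gene whose product promotes decay of Ptgs2 and other AU-rich messages, rose from 35.7 ± 0.57 to 131 ± 1.6 and 263 ± 1.5 FPKM. Mapkapk2, a kinase that counters tristetraprolin, rose in I vs M1 from 193 ± 7.5 to 250 ± 3.2. Mapk3, a kinase able to phosphorylate the cytosolic phospholipase, rose from 39.9 ± 1.3 to 114 ± 2.9 in M1 and fell to 79.8 ± 2.1 in I. Anxa1, a glucocorticoid-induced inhibitor of phospholipase activity, rose from 55.7 ± 1 to 78.9 ± 0.39 and fell to 39.3 ± 0.98. Anxa2 rose from 125 ± 6.4 to 484 ± 5.7 in M1 and was at 483 ± 18 in I. Cebpb, which encodes a C/EBP factor and was named after its values were seen, rose from 69.4 ± 2.9 to 212 ± 15 and 279 ± 6.7.

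**Figure D4:**
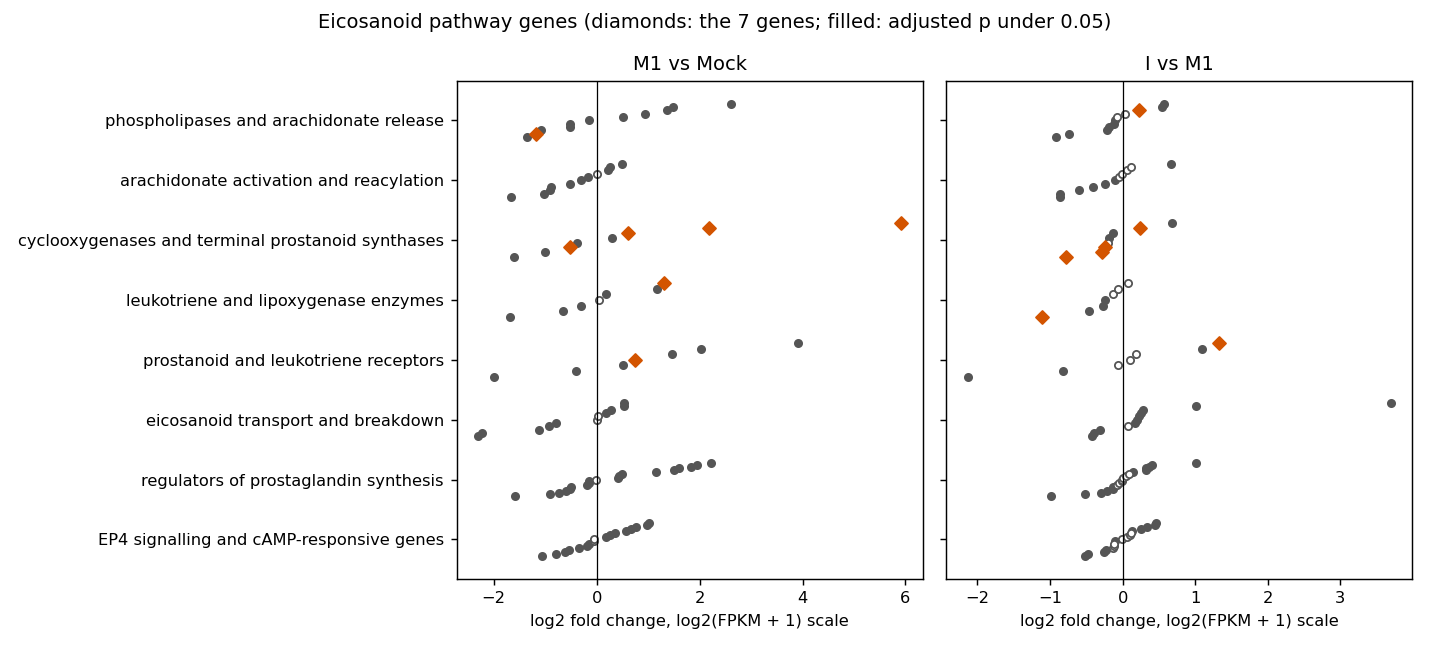
Log2 fold changes on the log2(FPKM + 1) scale of the 91 tested pathway genes by list, in M1 vs Mock (left) and I vs M1 (right), on axes of different range. Each point is a gene, filled where the limma adjusted p is under 0.05, with diamonds for the 7 members. Ptgs2 stands farthest right on the left side (5.92), and Akr1b3 on the right side (3.7), while filled points lie on both sides of 0 in every list except the leukotriene list of I vs M1, where none is above 0.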

How the data were processed

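Per the labels' protocols, poly(A) RNA of 9 RAW264.7 libraries was sequenced, 3 each in Mock, M1 and I. The deposited values are FPKM, a unit read from the values because no header names it. fastp 0.20.1, HISAT2 2.2.1, featureCounts 2.0.1 of the Subread package and the build GRCm38 are named by the submitters' processing notes. The sources used here give neither strand setting nor annotation, so overlapping genes cannot be separated. The 12474 rows of each library all hold values above 0, and a gene at 0 in some library is not analysed here.

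FPKM multiplied by GENCODE vM21 exon length gave whole fragments, within 0.05, in 98.44% to 98.58% of values. Depth was 17431069 to 25470730 fragments, and 1 fragment on 1 kb is worth 0.0393 to 0.0574 FPKM.

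One limma 3.58.1 model (R 4.3.3) with an intensity trend was fitted to log2(FPKM + 1) of 11156 rows with at least 0.5 FPKM in at least 3 libraries, with Benjamini-Hochberg adjustment over all of them and calls under 0.05. For low genes that scale gives too small a fold change. Fold values in the text are ratios of mean FPKM. The script was tested on simulated data. The members and lists were chosen with earlier results of these data known. Named were all members, up to 4 genes per list with the smallest p in M1 vs Mock and in I vs M1, and the 3 genes most like each member. The text gives part of them. Alternatives were RLE and quantile scaling, pseudocount 0.1, no filter, a filter of 1 FPKM, limma-voom on 10762 genes, a replicate block, fits of only the groups compared, and leaving out each library.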

Additional observations from a re-analysis of the deposited data

How the results depend on the processing

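For the 7 members, 357 values under the alternatives all kept their direction and their side of the threshold (largest adjusted p = 0.0389, for Ptgs2 in I vs M1 with quantile scaling). In some of these fits the fold change was fixed in advance, so that only the call could change. They are no filter, the filter of 1 FPKM, the replicate block and fits of only the groups compared. Leaving out a library of the group not compared likewise leaves the fold change as it was. Of 297 other values on counts and ratios, 293 stayed within 1.5 times the reported count or within 1 SD between libraries of the reported log2 ratio. Genes called higher in M1 vs Mock went from 3405 to 4870 with RLE scaling, inside that limit. The number of genes called higher in I vs Mock became 4783 with RLE scaling (3146 in the fit reported). With a pseudocount of 1 the log2 ratio of Ptgs2 to Ptgs1 in I vs Mock was 6.97 (7.16 without), and that of Ptges to Ptges2 was 1.56 in M1 vs Mock (2.42 without) and 1.03 in I vs Mock (1.78 without). In I vs Mock RLE scaling also moved the median gene from −0.30 to 0.00042 and the number of genes called lower from 6534 to 4766. The part of this shift in the count called higher was not tested. The changes of the ratios follow from adding 1 to low FPKM.

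Among other named genes and lists, 2523 values stayed the same, 43 lost a call, 16 gained one and 13 changed sign. For a gene the same means that direction and call were kept. For a list it means a count of called genes within 1.5 times the reported count. The fits in which a fold change was fixed in advance are among these values too. Fads1 in M1 vs Mock lost its call with RLE scaling (adjusted p = 0.933), and Ptges3 in I vs M1 with RLE (adjusted p = 0.328) and quantile scaling (adjusted p = 0.397). RLE scaling reversed Abhd12 (0.16) and Mapkapk2 (0.12) in M1 vs Mock, Anxa2 in I vs M1 (0.063), and Hpgds (0.041) and Alox5 (0.34) in I vs Mock. Quantile scaling reversed Anxa2 in I vs M1 (0.069), and Alox5 (0.16) and Ptger2 (0.040) in I vs Mock. Differences near 0 also changed sign when 1 library was left out. Alox5 in I vs Mock ranged from −0.049 to 0.011, above 0 without Mock replicate 2 (0.011) and without I replicate 3 (0.0037). Lpcat2 in M1 vs Mock ranged from −0.0016, without M1 replicate 2, to 0.028. Anxa2 in I vs M1 ranged from −0.029 to 0.023, above 0 without M1 replicate 3 (0.0036) and without I replicate 2 (0.023). The cause was not tested.

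Same-numbered libraries were not seen to deviate together (correlations −0.115 to 0.047). Libraries of different number gave −0.085 to 0.119. With 3 libraries a group this shows no pairing by number and cannot exclude one. The replicate block gave 9548 calls in M1 vs Mock (9571 without it), 7032 in I vs M1 (7157) and 9663 in I vs Mock (9680). Depth limits Ptges and Ptger4 most, with 48 and 164 fragments in their lowest Mock library.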

Other observations

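Genes of EP4 signalling and of the cyclic AMP response form 1 of the 8 lists already counted in the totals above. Of 17 tested, 8 rose and 7 fell in M1 vs Mock (median log2 fold change −0.046, all genes −0.23), and 5 rose and 5 fell in I vs M1 (median −0.0033). The immediate early receptor gene Nr4a1, a known cyclic AMP target, rose from 0.851 ± 0.03 to 2.63 ± 0.03 and 3.59 ± 0.16 FPKM (SD, n = 3 in each group). Per1, a clock gene with cyclic AMP response elements, went from 8.06 ± 0.24 to 17.3 ± 0.43 and 18.9 ± 0.31. Nr4a2 of the same list went from 0.765 ± 0.13 to 0.385 ± 0.059 and 0.271 ± 0.049. Pde4d went from 1.03 ± 0.052 to 0.392 ± 0.014 and 0.271 ± 0.087. Both were called lower in M1 vs Mock and not called in I vs M1, and both were named after their values were seen. Both passed the filter of 0.5 FPKM only through the Mock libraries, where they are highest, so a lower call in M1 was favoured in advance. The protein kinase A catalytic genes differed, with Prkaca at 23.3 ± 1.5, 37.3 ± 1.1 and 26.7 ± 1.6 and Prkacb at 19.4 ± 0.33, 10.8 ± 0.33 and 9.05 ± 0.067. Arrb1, a beta-arrestin gene, rose at both steps from 13.5 ± 0.14 to 17.5 ± 0.19 and 24.3 ± 0.76. The phosphodiesterase gene Pde4a fell from 6.12 ± 0.066 to 2.42 ± 0.14 in M1 and was at 2.7 ± 0.15 in I (limma adjusted p = 0.0632 for I vs M1).

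Ptgs2os, a noncoding gene on the minus strand (chr1:150074873-150099963) that starts 68 bases upstream of Ptgs2 and runs away from it, was picked out for its position after its values were seen. Its libraries gave 0.0544, 0.0132 and 0.0687 FPKM in Mock, 0.569, 0.887 and 0.637 in M1, and 0.85, 0.968 and 1.03 in I. These rest on 1 to 6 fragments in each Mock library, on 49 to 84 in each M1 library and on 77 to 86 in each I library. Mock lay wholly below both polarized groups, while the highest M1 library was above the lowest I library. Ptgs2os passed the filter of 0.5 FPKM only through the M1 and I libraries, so a call of higher against Mock was favoured in advance. In M1 vs Mock the limma log2 fold change was 0.7 ± 0.074 SE (adjusted p = 4.14e-06), against 2.46 with a pseudocount of 0.1 and 3.93 with limma-voom on fragments. In I vs M1 it was 0.2 ± 0.074 SE (adjusted p = 0.0332). The call was kept with RLE scaling (0.24, adjusted p = 0.0167), quantile scaling (0.26, adjusted p = 0.0168) and limma-voom (0.44, adjusted p = 0.0404). It was lost with a pseudocount of 0.1 (0.41, adjusted p = 0.103), with only the groups compared (0.20, adjusted p = 0.0507), and without M1 replicate 1, M1 replicate 3, I replicate 2 or I replicate 3 (0.15 to 0.20, adjusted p = 0.0777 to 0.125). Per length, Ptgs2os stayed far below Ptgs2 in all 9 libraries.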
